A study of Melitaea cinxia with 174 samples.

Results

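Of 174 Glanville fritillary butterflies (Melitaea cinxia) whose thorax RNA was sequenced, 12 had a high level of a chitinase-like gene, MCINXTMP_013513, and 125 had a low level. The level is log2(normalized count + 1) in the deposited table of normalized counts. Individuals at 6 or more were taken as high, individuals under 2 as low, and the 37 individuals between these values as intermediate. All other genes were then compared between high and low individuals on the raw counts. The butterflies came from ÅL (Åland, 49 individuals) and UP (Uppland, 20), where the habitat is fragmented, and from SA (Saaremaa, 63) and ÖL (Öland, 42), where it is continuous. The study set aside individuals whose genotypes lay with another population. The labels do not say which, so all were kept here under their labelled population. The larvae were taken from the field in diapause and overwintered in cold chambers with others of their own population. They were then reared 1 by 1 on Plantago lanceolata in a common garden, where the adults stayed for 3 days. No treatment was given to any group, each library holds the thorax of 1 individual, and the high and low individuals are not genetic lines but were separated here only by the level of the gene. Individuals are named by their population and a replicate number in deposit order.

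Chitinase-like proteins are related to the enzymes that cleave chitin, the polymer of insect cuticle, but members of the family that have lost key catalytic residues bind sugars without cleaving them. In Drosophila, imaginal disc growth factors belong to this family and are secreted into the hemolymph, and the mammalian chitinase-3-like protein 1 is a secreted protein that is raised in inflammation and tissue repair. The gene MCINXTMP_013513 is called chitinase-like 3 in the study and is annotated as chitinase-3-like protein 1 in its supplement, and the counts cannot tell these names apart. The study reports this gene as raised after a flight treatment, and as higher in butterflies of fragmented landscapes. Insects answer infection and wounding with antimicrobial peptides, small secreted proteins such as defensins, cecropins, gloverins and lebocins, which are made mainly in the fat body and hemocytes and accumulate in the hemolymph.

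The level of MCINXTMP_013513 was 8.20 in the lowest high individual, 10.34 at the median and 11.95 in the highest, which was ÅL replicate 9. It was 0.00, 0.76 and 1.98 at the lowest, median and highest of the low individuals, of which 41 had no count of the gene. The raw counts of the gene were 687 to 10457 in the high individuals and 0 to 15 in the low individuals. These values chose the groups and are given as a description. At the upper threshold, the values on either side were 5.52, in the intermediate ÅL replicate 27, and 8.20, in SA replicate 6, and no individual lay in the interval of 2.67 between them. At the lower threshold, the values on either side were 1.98 and 2.004, so that the border between low and intermediate individuals was not marked by a gap. The high individuals held 96.5% of all counts of the gene in the series, and ÅL replicate 9 alone held 23.9%.

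**Figure D1:**
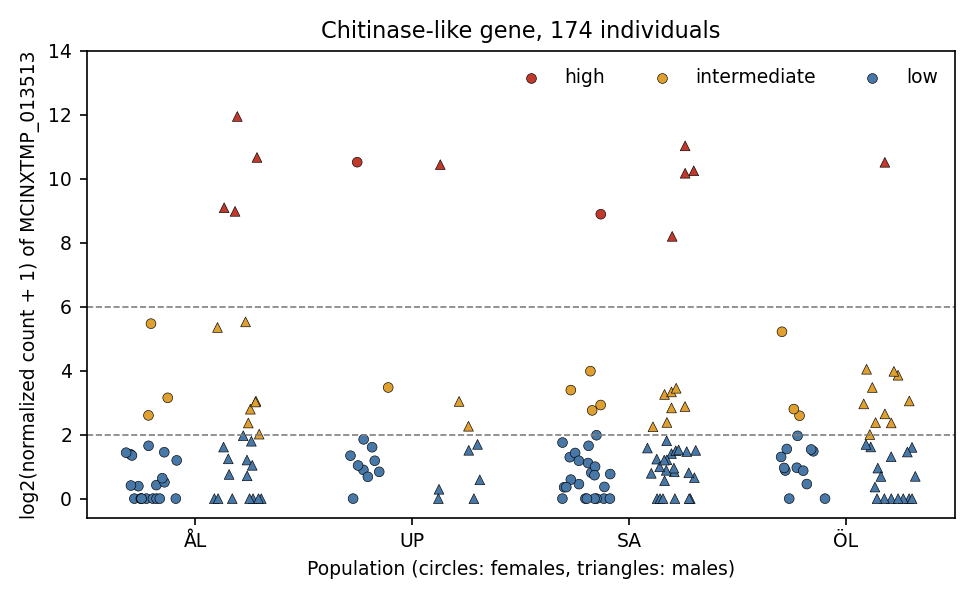
Level of the chitinase-like gene, as log2(normalized count + 1), in each of the 174 individuals by population, with females as circles, males as triangles and dashed lines at the thresholds of 2 and 6. The 12 high individuals lie between 8.20 and 11.95, above an empty interval that starts at 5.52, and occur in all 4 populations.

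High individuals occurred in every population. There were 4 in ÅL, all males, 2 in UP (1 female and 1 male), 5 in SA (1 female and 4 males) and 1 male in ÖL. They made up 10.3% of the 97 males (95% Wilson interval 5.70 to 17.95%) and 2.60% of the 77 females (0.715 to 8.985%), a difference that did not pass Fisher's exact test (2-sided p = 0.0685, adjusted over 2 comparisons p = 0.137). The difference was 7.71 percentage points. Without UP it was 8.71 percentage points and passed the unadjusted Fisher's exact test. The share of high individuals was 8.70% of 69 in the fragmented and 5.71% of 105 in the continuous landscapes (Fisher's exact test, 2-sided p = 0.545). These intervals cover counting error only.

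Depth overlapped between the groups. The total count was 668964 at the lowest, 2854798 at the median and 5508667 at the highest of the high individuals, and 442717, 2565334 and 7742394 in the low individuals. The 10 most abundant genes of each individual took 16.02 to 33.3% of the counts in high and 17.5 to 48.9% in low individuals. The muscle markers of the thorax, troponin C (2 genes) and myosin II heavy chain, were detected in all classes, with a summed level of 9.84 to 11.5 in high and 9.31 to 12.4 in low individuals, and none of the 3 passed the test. The summed level of 21 cuticular protein genes was 10.4 to 15.5 in high and 9.30 to 15.8 in low individuals, and that of 7 sensory genes was 11.5 to 13.5 and 10.8 to 14.2. The 4 hexamerin genes, storage proteins of the fat body, had a summed level of 1.62 to 6.33 in high and 0.00 to 10.5 in low individuals, with medians of 3.37 and 1.33, so that this fat body list was higher in the high individuals at the median. The single hexamerins had no count in 35 to 74 of the low individuals, and the summed levels are not adjusted for population or sex. A lower abundance of a transcript in whole thorax can mean fewer cells of a type or less RNA per cell, and the counts cannot tell these apart. In 6 individuals, fewer than 25 of 50 sex-dependent genes lay on the side of their labelled sex. None of them was high, 5 were low and 1 was intermediate, and the values without them are given below where they bear on a count.

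Between high and low individuals, 548 of 8969 genes passed FDR<0.05, which is 6.11% of the genes tested (edgeR quasi-likelihood F-test with population and sex as covariates). Of these, 521 were higher and 27 lower in the high individuals, or 5.81% and 0.301% of the genes tested. The median log2 fold change was 2.08 among the higher genes, -0.87 among the lower genes and -0.05 over all genes tested. There were 432 higher genes with a log2 fold change of 1 or more and 65 with 5 or more, whereas 10 lower genes reached -1. In 230 of the higher genes, each of the 12 high individuals lay above the median of the low individuals. The count was 493 to 560 when single high individuals were left out, and 584 without the 6 individuals whose sex genes lay with the other sex, of which 540 were shared with the 548 genes. The gene that chose the groups was not tested. Only 62 of the 548 genes carry a description in the tables used here, so that most of the comparison rests on genes without a name. Descriptions were also scarce over all genes tested, with 1270 of 8969, a somewhat larger share. They come from the supplement of the study, so that the described genes are not a random sample of the genes tested.

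**Figure D2:**
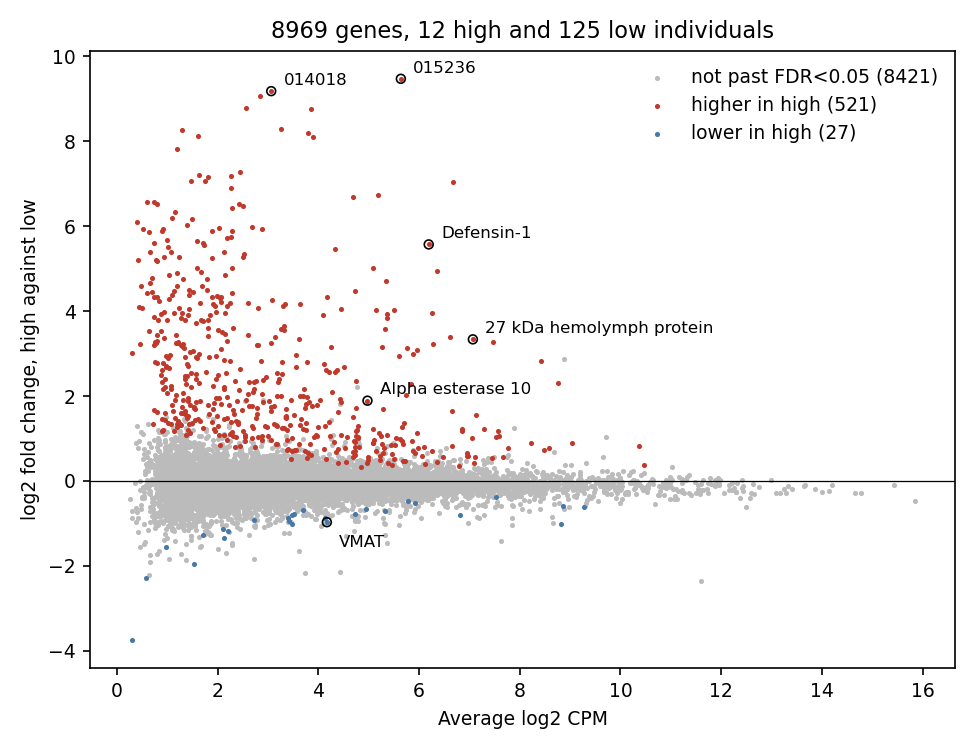
log2 fold change of high against low individuals (vertical axis) against the average log2 CPM over individuals (horizontal axis) for the 8969 genes tested, with 521 higher genes in red and 27 lower genes in blue. The red points reach a log2 fold change of 9.47 (MCINXTMP_015236), whereas few blue points lie below -1 (VMAT is the vesicular monoamine transporter).

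The genes that changed most had no description. MCINXTMP_014018 had a level of 3.62 in the lowest, 6.06 in the median and 7.90 in the highest high individual, against 0.00, 0.00 and 1.41 in the low individuals. All high individuals lay above all low individuals, of which 108 had no count and which held 25 counts in total. Its log2 fold change was 9.18 (SE 0.21, FDR = 5.3e-80), where the SE, here and below, is derived from the F statistic. MCINXTMP_015236 was at 5.85, 8.93 and 10.21 in the high individuals and at 0.00, 0.36 and 6.14 in the low individuals. A single low individual exceeded the lowest high one, which was ÅL replicate 35, and the log2 fold change was 9.47 (SE 0.32, FDR = 2.7e-59). These genes and MCINXTMP_009760 had the highest rank correlations with MCINXTMP_013513 over all 174 individuals, with Spearman's rho of 0.72, 0.61 and 0.58, given as a description because the groups were chosen on the same gene. MCINXTMP_009760 was at 3.499, 6.47 and 9.33 in the high individuals and at 0.00, 0.00 and 4.24 in the low individuals (log2 fold change 8.11, SE 0.34).

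In 12 of the 8969 genes, or 0.134%, every high individual lay above every low individual. All of them were among the 548 genes, and none carried a description. Their log2 fold changes ranged from 4.49 to 9.18, and the largest after MCINXTMP_014018 were those of MCINXTMP_004378 (9.07, SE 0.24) and MCINXTMP_013427 (8.76, SE 0.27), named after their values were seen. In MCINXTMP_004378 the level was 2.22 to 8.01 in high and 0.00 to 1.17 in low individuals. No gene had every high individual below every low one, which would need a count of the gene in each of the 125 low individuals. MCINXTMP_014018, with 25 counts in all low individuals, could pass the count filter only through the high individuals. The numbers of genes in the 2 directions therefore cannot be compared. In 19 of the 521 higher genes, at least 100 of the 125 low individuals had no count. Among the 521 genes, 17.1% had a neighbour in the numbering of the gene models that was also higher, compared with 5.59% of the other genes tested. Whether neighbouring numbers share reads, as split or duplicated gene models would, was not tested.

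Defensin-1 (MCINXTMP_014016), a cysteine-rich antimicrobial peptide, was the described gene with the smallest p-value. Its level was 6.74 at the lowest, 9.17 at the median and 10.82 at the highest of the high individuals, and 0.00, 2.84 and 8.70 in the low individuals. Of the 12 high individuals, 8 lay above all low ones, and only 2 of 125 low individuals exceeded the lowest high individual. The log2 fold change was 5.57 (SE 0.39, FDR = 7.8e-27), and it ranged from 5.41 to 5.68 when single high individuals were left out.

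The antimicrobial peptides of the fixed list changed with it, but less evenly. Of 8 peptides in the list, 7 were tested, and 6 of them were higher at FDR<0.05 and none lower, against 5.81% higher among all genes tested. Their median log2 fold change was 3.58 over the 7 genes, against -0.05 for all genes tested. The summed level of the hexamerins, markers of the fat body, was also higher in high than in low individuals at the median (3.37 and 1.33), without adjustment for population or sex. Its ranges overlapped (1.62 to 6.33 in high, 0.00 to 10.5 in low individuals). Of the 4 hexamerins, 1 passed and was higher, against 5.81% higher among all genes tested. The part of the fat body in the result was not tested. The log2 fold change was 4.26 (SE 0.69) for gloverin 1 or 3 (MCINXTMP_002387), 3.91 (SE 0.58) for lebocin 4 (MCINXTMP_011164), 3.58 (SE 0.62) for the merged model of cecropins 4 and 5 (MCINXTMP_012360), 3.39 (SE 0.58) for cecropin 3 (MCINXTMP_012359) and 3.23 (SE 0.51) for defensin-5 (MCINXTMP_000474). Gloverin 1 (MCINXTMP_009396) did not pass (1.81, SE 0.66, FDR = 0.0999). Gloverins, cecropins and lebocins act on bacterial membranes. Moricin 2 was too low to be tested. Members of these families are near copies of each other, and how the reads were divided between them is uncertain.

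Unlike defensin-1, these 5 peptides overlapped widely between the groups. Cecropin 3 was at 2.61, 6.37 and 12.07 in the high individuals and at 0.00, 3.17 and 11.02 in the low individuals, and 85 low individuals exceeded the lowest high one. The high values belonged above all to 2 males from ÅL. Replicate 35 had 12.07 and replicate 48 had 11.34, whereas the other high individuals had 2.61 to 7.21. For the cecropin 4 and 5 model these males had 11.35 and 9.78, and the next individual, UP replicate 11, had 5.31. For lebocin 4 they had 9.997 and 8.41, and the next, SA replicate 8, had 5.62. For defensin-1, by contrast, they had 9.59 and 8.93, within the range of the other high individuals.

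Without ÅL replicate 35, the log2 fold change fell to 2.33 for the cecropin 4 and 5 model, 2.69 for cecropin 3, 2.81 for lebocin 4, 2.97 for gloverin 1 or 3, 2.25 for defensin-5 and 0.09 for gloverin 1. The 6 calls of the list were kept in each leave-one-out fit. Without all individuals from ÅL, 3 of the peptides passed, namely defensin-1 (5.49), defensin-5 (2.31) and lebocin 4 (1.92), and cecropin 3 (1.77), the cecropin 4 and 5 model (1.06) and gloverin 1 or 3 (1.80) did not. With only the 15 individuals of largest total count per population, 2 of the peptides passed.

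**Figure D3:**
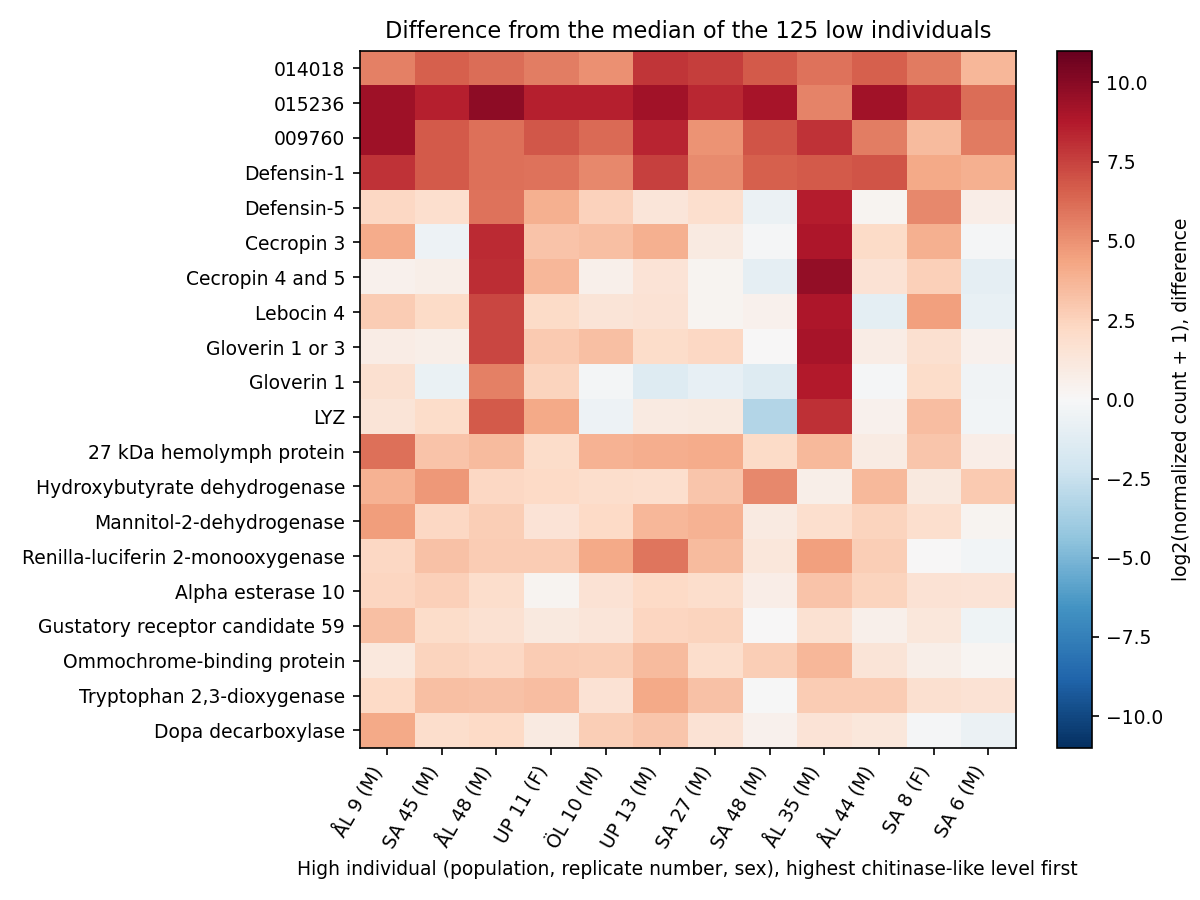
Level in each of the 12 high individuals minus the median of the 125 low individuals, for 20 genes (rows), with individuals ordered by their level of the chitinase-like gene and named by population, replicate number and sex. The rows of MCINXTMP_014018, MCINXTMP_015236, MCINXTMP_009760 and defensin-1 are red throughout, and the other antimicrobial peptides and LYZ are darkest in ÅL replicates 35 and 48.

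Among other immune genes, LYZ (MCINXTMP_011858), annotated as a lysozyme, which cleaves bacterial cell walls, was higher by 2.99 on the log2 scale (SE 0.50, FDR = 5.9e-07). Like the cecropins it was highest in the same males, with 11.315 and 9.9997 in ÅL replicates 35 and 48 and a range of 0.00 to 7.46 in the other high individuals. Its log2 fold change was 2.17 without ÅL replicate 35 and 1.74, no longer past the threshold, without ÅL. Of 11 genes tested on the list of other immune genes, 1 was higher and none lower, against 5.81% higher among all genes tested. It was the invertebrate lysozyme MCINXTMP_000818, with a log2 fold change of 0.66 (SE 0.19, FDR = 0.0091). Its level was 5.91, 7.32 and 8.35 in the high and 4.40, 6.78 and 8.43 in the low individuals, and it did not pass without ÖL replicate 10 (0.55, FDR = 0.0838). The I-type lysozyme MCINXTMP_000819, on the same list, did not pass (-0.36, SE 0.21, FDR = 0.469), and 10 of the 12 high individuals lay below the low median. The median of this list was -0.04. The leukocyte elastase inhibitor C gene MCINXTMP_014138, a serpin that inhibits serine proteases, was higher by 1.17 (SE 0.24).

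The gene annotated as 27 kDa hemolymph protein (MCINXTMP_014618) was at 6.56, 9.12 and 11.83 in the high and at 3.53, 5.80 and 9.44 in the low individuals. All high individuals lay above the low median and 4 lay above all low individuals, with a log2 fold change of 3.34 (SE 0.24, FDR = 3.6e-26). The highest value belonged to ÅL replicate 9, which was also the highest in MCINXTMP_013513. Hexamerin 2 (MCINXTMP_015567) was the only member of the hexamerin list that passed (2.16, SE 0.63, FDR = 0.0162), with levels of 1.02, 2.203 and 3.83 in the high and 0.00, 0.61 and 7.14 in the low individuals. It did not pass without ÖL replicate 10 (1.61, FDR = 0.242) or SA replicate 27 (1.59, FDR = 0.195), and without covariates its sign turned (-0.38). A second gene model annotated as hexamerin 2, MCINXTMP_010010, did not pass (2.22, SE 0.81, FDR = 0.0957). Nor did the hexamerin 2 precursor MCINXTMP_015566 (0.23, SE 0.60) or hexamerin 4, MCINXTMP_015572 (-0.22, SE 1.21). Hexamerin genes are also similar to each other in sequence, so that reads may be shared.

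Hydroxybutyrate dehydrogenase (MCINXTMP_007645), an enzyme of ketone body metabolism, was at 3.87, 5.82 and 8.53 in the high and 1.18, 3.26 and 5.57 in the low individuals, with 6 high individuals above all low ones (3.16, SE 0.245, FDR = 2.0e-23). Mannitol-2-dehydrogenase (MCINXTMP_011583), which interconverts mannitol and fructose, was at 3.89, 5.82 and 8.17 in the high and 0.00, 3.60 and 6.19 in the low individuals (2.62, SE 0.22, FDR = 7.2e-21). Alpha esterase 10 (MCINXTMP_001574), of a family of carboxylesterases that includes detoxification enzymes, was at 4.79, 6.44 and 7.60 against 2.39, 4.495 and 6.62 (1.89, SE 0.19, FDR = 7.9e-16). In all of these genes each of the 12 high individuals lay above the low median. A gene annotated as Renilla-luciferin 2-monooxygenase (MCINXTMP_004817) was at 0.28, 3.42 and 6.53 in the high and 0.00, 0.61 and 4.59 in the low individuals (4.16, SE 0.41).

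**Figure D4:**
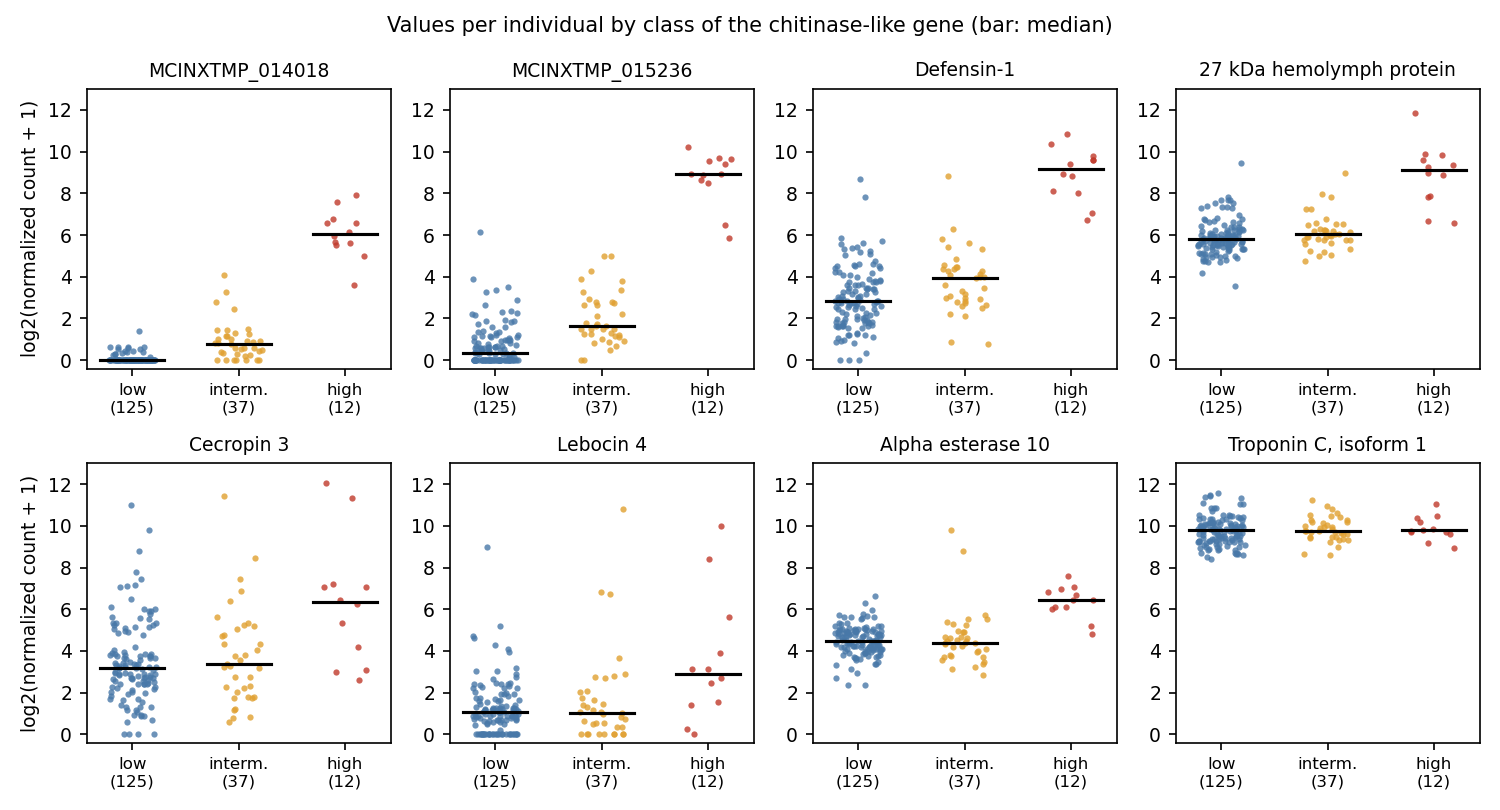
log2(normalized count + 1) of 8 genes in each low (125), intermediate (37) and high (12) individual, with the median as a bar. The low and high individuals are apart in MCINXTMP_014018 and nearly apart in MCINXTMP_015236 and defensin-1. They overlap widely in cecropin 3 and lebocin 4, and have close medians in troponin C, isoform 1. The intermediate individuals overlap the low ones in all 8 genes. They reach 4.10 in MCINXTMP_014018 and 8.83 in defensin-1, above the lowest high values of 3.62 and 6.74.

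Ommochrome-binding protein (MCINXTMP_006572), which carries an insect eye and wing pigment, had a log2 fold change of 2.93 (SE 0.33, FDR = 7.7e-14), with 7 high individuals above all low ones. Tryptophan 2,3-dioxygenase (MCINXTMP_003691), the first enzyme of the route from tryptophan to ommochromes, was at 2.28, 5.10 and 6.45 in the high and at 0.00, 2.30 and 6.98 in the low individuals (1.99, SE 0.36). Dopa decarboxylase (MCINXTMP_000304), which makes dopamine for cuticle tanning and signalling, was at 2.45, 4.68 and 7.297 against 0.00, 3.10 and 5.67 (1.82, SE 0.25, FDR = 8.2e-10). Each of these genes overlapped between the groups, with 53 to 90 low individuals above the lowest high one.

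Neutral lipase (MCINXTMP_002178), which releases fatty acids from stored fat, was higher by 2.002 (SE 0.28) and ATP-citrate synthase (MCINXTMP_004898), which supplies acetyl-CoA for fatty acid synthesis, by 0.99 (SE 0.15, FDR = 8.6e-09). The levels of the latter were 4.96, 6.44 and 7.62 in the high and 4.40, 5.38 and 6.82 in the low individuals. A fatty acid elongase (MCINXTMP_000498) was higher by 2.54 (SE 0.39), and by 1.66 without ÅL replicate 9. The purine synthesis enzyme ADE2 (MCINXTMP_001807) was higher by 1.36 (SE 0.17), zinc carboxypeptidase A 1 (MCINXTMP_015295) by 2.45 (SE 0.36) and the transcription coactivator homologue MBF2 (MCINXTMP_015257) by 2.57 (SE 0.31). A putative secreted peptide (MCINXTMP_001294) was higher by 3.28 (SE 0.40), and a putative gustatory receptor candidate (MCINXTMP_015360) by 1.66 (SE 0.17), with levels of 5.80, 7.78 and 9.61 against 4.51, 6.29 and 8.03.

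Few genes were lower in the high individuals, and the lower genes changed by less. The vesicular monoamine transporter gene (MCINXTMP_000876), which loads dopamine and related amines into vesicles, was at 1.27, 3.48 and 4.60 in the high and 0.00, 4.01 and 5.84 in the low individuals (-0.97, SE 0.30, FDR = 0.0275), with 9 high individuals below the low median. The beta subunit of phosphorylase kinase (MCINXTMP_003102), which activates glycogen breakdown, was at 2.61, 3.26 and 4.93 against 1.57, 3.90 and 5.74 (-0.86, SE 0.27, FDR = 0.0357). Cryptochrome (MCINXTMP_015798), a protein of the circadian clock, was lower by 1.54 on the log2 scale (log2 fold change -1.54, SE 0.49, FDR = 0.032) at an average below the minimum of the naming rule, and is named after its value was seen. The largest log2 fold changes at an average log2 CPM above 1 were those of MCINXTMP_016308 (-1.96, SE 0.65, FDR = 0.0486) and MCINXTMP_015148 (-1.35, SE 0.44, FDR = 0.0451), which have no description.

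None of these calls was kept in all 12 fits that left out a high individual. That of the monoamine transporter was lost without ÅL replicates 9, 35 or 48, SA replicates 27 or 48 or UP replicate 11 (-0.94 to -0.87). That of phosphorylase kinase was lost without ÅL replicates 9 or 35, SA replicates 8, 27 or 45, ÖL replicate 10 or UP replicate 11 (-0.85 to -0.78). Cryptochrome kept its call in 5, MCINXTMP_016308 in 4 and MCINXTMP_015148 in 3 of the fits. The number of lower genes was 15 without ÅL replicate 35, 17 without ÅL replicate 44 or SA replicate 45 and 41 without SA replicate 6, against 27, and it was 64 with DESeq2 and 10 with either other pair of thresholds.

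Among signalling pathways, 2 of 69 genes of the Wnt list, 1 of 24 of the Notch list and 5 of 65 of the hedgehog list were higher and none lower, against 5.81% higher among all genes tested, with median log2 fold changes of -0.07, -0.11 and -0.04. The hedgehog and Wnt lists share members. Hedgehog itself (MCINXTMP_007389), a secreted signal in tissue patterning, was higher by 0.96 (SE 0.29, FDR = 0.0198), with levels of 1.55, 2.96 and 3.997 against 0.00, 1.89 and 4.64. It did not pass without ÖL replicate 10, SA replicates 8, 27 or 48 or UP replicate 13 (0.84 to 0.90). A gene annotated as foraging (MCINXTMP_002027), which in Drosophila encodes a cGMP-dependent protein kinase that affects food search, was at 2.95, 4.15 and 4.70 in the high and 0.00, 1.86 and 4.47 in the low individuals (1.67, SE 0.29, FDR = 1.1e-06). A second gene model annotated as foraging, MCINXTMP_008564, did not pass, with levels of 3.47, 4.73 and 6.16 in the high and 2.85, 4.93 and 6.86 in the low individuals (-0.27, SE 0.26, FDR = 0.738). On the Wnt and hedgehog lists, the Cdc42/Rac-activated kinase MCINXTMP_013877 was higher by 0.52 (SE 0.11) and the undescribed MCINXTMP_009848 by 2.97 (SE 0.38). On the hedgehog list, the undescribed MCINXTMP_005277 was higher by 1.83 (SE 0.31), and on the Notch list the fibulin-like extracellular matrix protein MCINXTMP_005508 by 2.004 (SE 0.27).

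One list held genes induced by flight in a separate experiment on other butterflies, without the antimicrobial peptides. Of its 25 tested genes, 4 were higher and none lower, against 5.81% higher among all genes tested, with a median log2 fold change of 0.24. They included alpha esterase 10 and 2 genes of the secretory pathway, which moves proteins into and through the endoplasmic reticulum. Protein disulfide-isomerase (MCINXTMP_005403), which forms disulfide bonds in secreted proteins, was at 5.14, 6.21 and 7.27 in the high and 2.45, 5.72 and 7.28 in the low individuals (0.70, SE 0.20, FDR = 0.0092). The Sec61 beta subunit (MCINXTMP_011562), part of the channel into the endoplasmic reticulum, was higher by 0.45 (SE 0.14, FDR = 0.0342), a call that was lost without ÅL replicates 9, 35 or 48, ÖL replicate 10 or SA replicates 6 or 8 (0.40 to 0.44). These were the only 2 calls among 9 tested genes of the secretory pathway list, again against 5.81% higher among all genes tested, and both are members of the flight list as well. The log2 fold changes of the 9 genes were 0.09 to 0.70. The 4 genes repressed by flight did not pass and had log2 fold changes of -0.31 to -0.14.

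No gene passed on the lists of cuticular proteins (18 tested, median log2 fold change -0.15), chaperones (6, median 0.11), genes of chitin and the gut lining (3, median 0.32), sensory genes (6, median -0.16) or muscle markers (3, median -0.04). Of 7 ecdysteroid genes, 1 was higher and none lower, against 5.81% higher among all genes tested, with a median log2 fold change of -0.09. It was an ecdysteroid UDP-glucosyltransferase (MCINXTMP_000449), which inactivates molting hormone by adding a sugar. Its log2 fold change was 2.35 (SE 0.43, FDR = 5.9e-06), and 1.74 without SA replicate 8. A second gene model with the same annotation, MCINXTMP_005524, did not pass (-0.32, SE 0.28, FDR = 0.682). None of 8 single genes on a further fixed list passed, namely Hsc70, Tenectin, Socs2, Hif-1a, Patched-related (annotated as patched domain-containing protein 3), Nicastrin, Tudor-SN and a serpin, with log2 fold changes of -0.28 to 1.51. The heat shock cognate Hsc70 (MCINXTMP_016461), a chaperone, was closest (0.52, SE 0.18, FDR = 0.0583) and passed without ÖL replicate 10, SA replicates 6 or 48 or UP replicate 11 (0.56 to 0.58).

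The 37 intermediate individuals differed from the low ones in 39 of 9145 genes, or 0.426% (edgeR quasi-likelihood F-test, all 174 individuals), of which 36 were higher (0.394%) and 3 lower (0.0328%). This comparison shares the low individuals with the one above. MCINXTMP_014018 had a level of 0.00, 0.76 and 4.10 in the intermediate individuals, and a log2 fold change of 3.65 (SE 0.29) against the low ones, compared with 9.18 in the high individuals. The corresponding values were 2.22 (SE 0.30) and 9.47 for MCINXTMP_015236 and 2.01 (SE 0.33) and 8.11 for MCINXTMP_009760. Defensin-1 did not pass between intermediate and low individuals (0.83, SE 0.30, FDR = 0.366), and nor did the 27 kDa hemolymph protein (0.29, SE 0.18, FDR = 0.892). Lebocin 4 passed (2.69, SE 0.44, FDR = 5.5e-06), and cecropin 4 and 5 also (1.90, SE 0.44, FDR = 0.0096). The medians of these peptides were close, at 1.04 in intermediate and 1.07 in low individuals for lebocin 4. For cecropin 4 and 5 they were 1.79 and 1.68. The highest levels were 10.79 and 11.19 in the intermediate individuals, against 8.98 and 10.13 in the low ones. In the 4 intermediate individuals above a level of 5, ÅL replicates 27, 12 and 16 and ÖL replicate 2, defensin-1 was at 4.86, 5.61, 5.82 and 3.10. Over all 37 intermediate individuals its highest level was 8.83, above the lowest high individual (6.74) and above all low ones (8.70).

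The contrast was also fitted apart in the fragmented and the continuous populations, which share no individuals. This was added after seeing the data. In ÅL and UP, 6 high and 50 low individuals were compared, and 397 of 8611 genes passed (4.61%), 391 of them higher (4.54%) and 6 lower (0.0697%). In SA and ÖL, 6 high and 75 low individuals were compared, and 337 of 8322 genes passed (4.05%), 332 of them higher (3.99%) and 5 lower (0.0601%). Among 7902 genes tested in both and in the pooled comparison, 332 passed in the fragmented and 313 in the continuous populations. Of these, 251 passed in both, which is 75.6% of the former and 80.2% of the latter, and all 251 had the same direction. The direction was the same for 97.9% of the genes called in the fragmented populations and 61.5% of all 7902 genes.

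**Figure D5:**
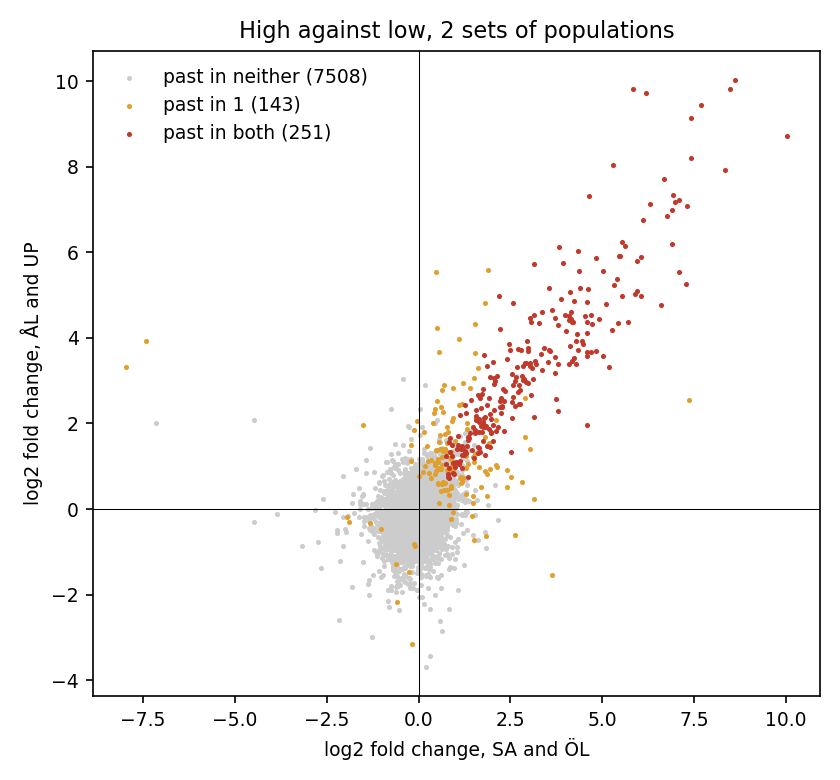
log2 fold change of high against low individuals in ÅL and UP (vertical axis) against that in SA and ÖL (horizontal axis) for 7902 genes. The 251 genes past FDR<0.05 in both sets of populations (red) all lie in quadrants of the same direction, mostly at positive values of both axes.

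The log2 fold change of defensin-1 was 5.91 (SE 0.72) in the fragmented and 5.45 (SE 0.40) in the continuous populations, that of the 27 kDa hemolymph protein was 3.41 (SE 0.38) and 3.04 (SE 0.28), and that of mannitol-2-dehydrogenase was 2.46 (SE 0.35) and 2.74 (SE 0.29). The values of the cecropin 4 and 5 model were farther apart, with 5.53 (SE 1.08) and 0.47 (SE 0.66), and cecropin 3 had 4.32 (SE 0.91) and 1.54 (SE 0.72). The test of the difference itself passed in none of 9409 genes (edgeR quasi-likelihood F-test), with 440 at an unadjusted p under 0.05 and a smallest FDR of 0.0798. For the cecropin 4 and 5 model the difference was 4.34 (SE 1.38, FDR = 0.609), and for defensin-1 it was -0.10 (SE 0.90). The hexamerin 2 model MCINXTMP_015567 had -1.55 (SE 1.32) in the fragmented and 3.62 (SE 0.43) in the continuous populations, and MCINXTMP_009760 had 9.72 (SE 0.37) and 6.18 (SE 0.47). Both differences had an FDR of 0.0825. With the log2 total count as a covariate, 3 genes passed.

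Between the sexes, the contrast differed in 1 of 10679 genes, or 0.00936%, and 466 genes had an unadjusted p under 0.05. Only 2 high individuals were females, so that differences could go undetected unless they were large. The male minus female difference was 1.41 (SE 1.37) for defensin-1, 0.39 (SE 1.72) for MCINXTMP_009760 and 0.20 (SE 0.34) for MCINXTMP_014018. In females alone, 150 genes passed, of which 137 were among the 548. In males alone, 538 passed and 480 were shared. The same individuals are part of the pooled comparison, so these overlaps do not compare the sexes with each other. The gene that differed, MCINXTMP_005060, has no description and is given in the closing section. Defensin-1 was at 8.84 and 7.03 in the high females, UP replicate 11 and SA replicate 8, and at 6.74 to 10.82 in the high males.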

How the data were processed

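Thorax RNA of 174 individuals was sequenced from in-house strand-specific libraries anchored at the polyA tail, 1 library per individual. The authors deposited raw read counts per gene and a table of normalized counts (a signal in which each individual's counts are multiplied by 1 constant, to within 0.00781%). The submitters' processing notes name CASAVA 1.7, TopHat2 2.0.5 and edgeR. Gene models carry MCINXTMP identifiers, and descriptions were taken from the supplement of the study.

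The groups came from the normalized counts, and all tests used the raw counts. Counts were fitted with edgeR 4.0.16 (TMM factors, filterByExpr with a minimum count of 10, quasi-likelihood F-test, Benjamini-Hochberg FDR over all genes tested) with population and sex as covariates. Reported levels are log2(normalized count + 1). The SE beside a log2 fold change is its absolute value divided by the square root of the F statistic. It was not estimated apart from the test, and it can be too small where the low individuals hold few counts. Each individual is a separate butterfly, and none of the 66 pairs of high individuals agreed within sampling noise (the other pairs were not compared). The steps were tested on simulated counts. Shares were compared with Fisher's exact test. The members, lists and tests were chosen with earlier results of these data known.

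Named genes were, among genes past FDR<0.05 with an average log2 CPM above 1, the 12 described genes with the largest log2 fold change in each direction and the 2 largest of any kind, up to 3 members of each list by p-value, all antimicrobial peptides, secretory genes and hexamerins, 8 single genes, and the 3 genes most like MCINXTMP_013513. Other described genes past FDR<0.05 were named after their values were seen. They include mannitol-2-dehydrogenase, tryptophan 2,3-dioxygenase, dopa decarboxylase, neutral lipase, ATP-citrate synthase, the elongase, ADE2 and zinc carboxypeptidase A 1. The same holds for MBF2, the gustatory receptor candidate, the leukocyte elastase inhibitor, hedgehog and cryptochrome. Alternatives were other normalizations, tests, filters, covariates, thresholds and subsets, and each high individual left out in turn. The fit without 6 individuals whose sex genes lay with the other sex and the separate fits by landscape type were chosen after seeing the data. Individuals that the study removed for their genotype are not marked in the labels and were kept. The count of genes past FDR<0.05 was 457 without ÖL and 439 without UP, the populations from which they came. Gene sequences were not used here.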

Additional observations from a re-analysis of the deposited data

Results flagged for a closer look

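In MCINXTMP_015236, ÅL replicate 35 lay at 5.85, apart from the other 3 high individuals of ÅL, of which the next was at 9.63. In the putative secreted peptide MCINXTMP_001294, SA replicate 6 was at 0.28, apart from the other high individuals of SA, of which the next was at 1.96. In MCINXTMP_005277, ÅL replicate 44 was at 1.98 and the next high individual of ÅL at 4.42. ÅL replicate 48 was at 1.94 in MCINXTMP_016308 and at 1.27 in MCINXTMP_015148, and the other 3 high individuals of ÅL were at 0.00 in both. These 5 values came from 96 groups examined, and chance gives about 1 in 20.

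The contrast of high against low individuals differed between the sexes in MCINXTMP_005060, with a male minus female difference of -5.24 on the log2 scale (SE 1.02, FDR = 0.0092, edgeR quasi-likelihood F-test). The high females were at 0.62 and 4.68, against 0.00 to 0.64 in the low females. The high males had a median of 0.00 and a highest level of 4.17, and the low males a highest level of 2.63. The difference rests on 2 females.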

How the results depend on the processing

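No paired analysis was possible because the replicate numbers only follow the order of deposit. The count of 548 genes, with 521 higher and 27 lower, was 897, 835 and 62 without a filter, 49, 45 and 4 with at least 10 counts in every individual, where fewer genes were tested, and 150, 149 and 1 in females only, where 2 individuals were high. Lower genes numbered 64 with DESeq2, 41 with the likelihood ratio test, 12 without ÅL, 16 without UP, 16 without ÖL, 10 with thresholds of 7 and 1, 10 with thresholds of 5 and 3, 17 with a slope on the level and 2 at FDR<0.01. The cause was not tested. In the other alternatives the total was 425 to 615. The lists held 19 calls, 2 with at least 10 counts in every individual, 10 in the balanced set and 2 in females. Intermediate against low gave 104 calls without a filter, and the landscape difference gave 3 with the log2 total as a covariate. The share of high males minus females was 8.71 percentage points without UP, past the threshold unadjusted. Leaving out single high individuals gave 493 to 560 genes, 470 to 523 higher, 15 to 41 lower and 17 to 21 list calls. Gloverin 1 (MCINXTMP_009396) turned to -0.38 in the balanced set and -0.093 without ÅL, and hexamerin 2 (MCINXTMP_015567) to -0.38 without covariates. Low counts limit genes that most low individuals lack, whose fold changes depend on few reads.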
